A study of Mus musculus with 6 samples.

Results

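The p200 family, also called HIN-200 or PYHIN, was examined in CD11b-positive cells from the bone marrow of Tshr-/- and Tshr+/+ mice. Its members were taken by gene symbol from the deposited expression table: Ifi202b, Ifi203, Ifi204, Ifi205, Ifi207, Ifi209, Ifi211, Ifi213, Mndal and Aim2, which are 10 of the 54532 genes in the table. The family was selected on its FPKM values in these same 6 libraries, with results of the genotype comparison known. Its values between the genotypes are therefore given as a description, and no test of a member is used as support. The Tshr-/- group held 3 libraries and the Tshr+/+ group, the wild type, held 3. Tshr encodes the receptor for thyrotropin, and the study asked how that hormone protects bone. All animals were 12 weeks old, and the cells were taken from the tibias by positive selection for CD11b, an integrin chain of myeloid cells. A further label names the mutants a knockdown and gives osteoclast differentiation as treatment to all samples, without a time. The sources used here give neither the strain nor the part of Tshr that the mutation removes. Mice carry a number in the titles and each library was read as 1 animal; nothing else says that the libraries are separate animals, so p-values measure only the spread between them.

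Proteins of the p200 family carry a HIN domain, which binds double-stranded DNA, and most also carry a pyrin domain, which joins them to other pyrin-domain proteins. Several members sense DNA in the cytosol or nucleus of macrophages and monocytes, and interferon induces many of them. AIM2 assembles an inflammasome with the adaptor ASC (gene Pycard) and caspase-1, p204 (gene Ifi204) acts upstream of STING and interferon-beta in mouse macrophages, and p202 (gene Ifi202b) binds DNA without a pyrin domain and inhibits AIM2. The level of Ifi202b is known to differ between inbred mouse strains.

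Values are FPKM, that is fragments per kilobase of gene, divided by a factor for each library that the authors set. That factor did not follow the fragments assigned to genes. In Tshr+/+ 1, 2 and 3, 1 fragment per kilobase was worth 0.0587, 0.0604 and 0.0541 FPKM. Yet Tshr+/+ 3 had the fewest assigned fragments of the 3 (17072004, against 17635762 and 17640437). In Tshr-/- 1, 2 and 3 it was worth 0.0622, 0.0713 and 0.0496 FPKM. How the factor was made is not known here. Fragments assigned to genes numbered from 14698126 to 17976477 per library. Itgam, which encodes CD11b, had between 87.4 and 134 FPKM, and the 12 myeloid identity genes examined all passed the filter on low values, which asked for 1 FPKM or more in 3 or more libraries. The T cell gene Cd3e was at most 0.0444 FPKM, while Nkg7 of cytotoxic lymphocytes reached 85.4 FPKM and the immunoglobulin gene Igkc of B lineage cells reached 561 FPKM. Tshr had 40, 25 and 1 fragments in the libraries labelled Tshr-/- 1, 2 and 3, against 55, 55 and 45 fragments in those labelled Tshr+/+ 1, 2 and 3. The libraries labelled Tshr-/- 1 and 2 thus hold the gene that their label says is mutated, and whether the counted exons lie outside the mutated part is not known here. The main results between the genotypes are therefore also given without them.

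The family lies in 1 cluster on chromosome 1 of GRCm38, from 173350879 (start of Aim2) to 174031810 (end of Ifi205), a stretch of 681 kb. Aim2 (173350879 to 173466040) and Ifi209 (173630917 to 173647928) are on the plus strand, and the other 8 members are on the minus strand. Mndal (173849126 to 173942491) spans Ifi211 (173896345 to 173913046) and most of Ifi203 (173920407 to 173942672), and 37 bases of its exons are also exons of Ifi203. The remaining members are Ifi213 (173566283 to 173599274), Ifi207 (173723427 to 173741747), Ifi204 (173747293 to 173766943), Ifi202b (173962568 to 173982744) and Ifi205 (174011998 to 174031810). All 10 are protein-coding genes. Of 12 other rows inside the cluster, 2 reached 1 FPKM in any library: Ifi206, with 0.855, 0.514 and 2.29 FPKM in Tshr-/- 1, 2 and 3 against 0.5, 0.830 and 1.63 FPKM in Tshr+/+ 1, 2 and 3, and the microRNA gene Gm44339 inside Ifi209. The p200 genes Ifi208 and Ifi214 stayed below 0.460 FPKM.

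**Figure D1:**
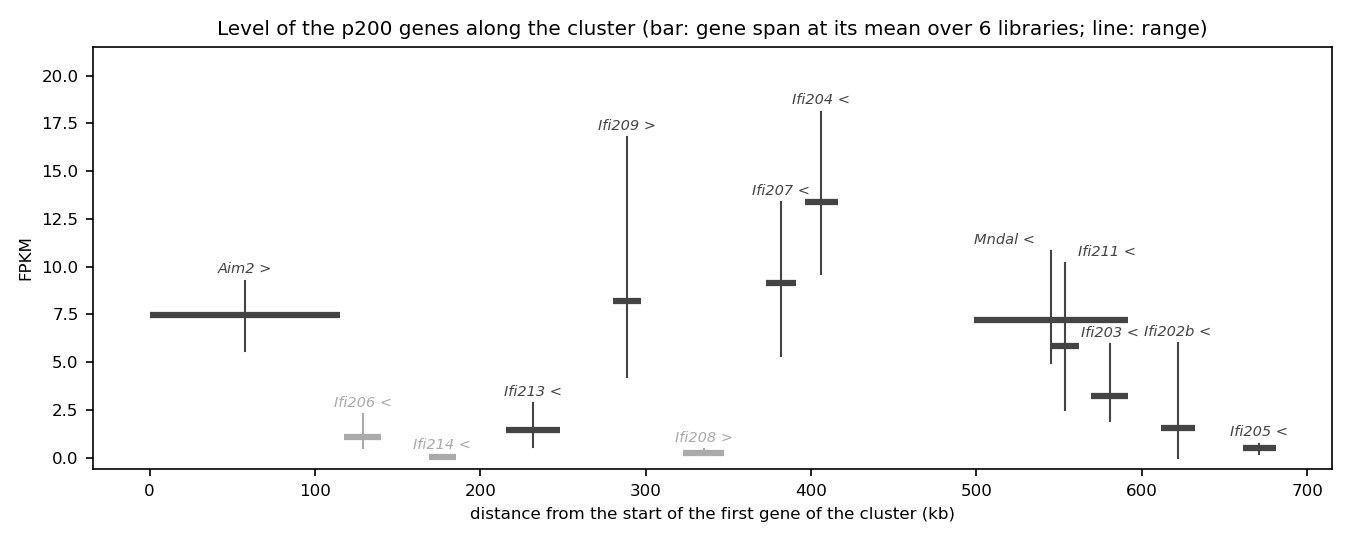
Position of each p200 gene along the cluster, in kb from the start of Aim2, against its level in FPKM. The horizontal bar spans the gene at its mean over 6 libraries, the vertical line is the range, the signs > and < beside a name give the plus and minus strand, and grey marks p200 genes outside the 10 members; Ifi204 is the highest at a mean of 13.4 FPKM and Ifi205 the lowest member at 0.486 FPKM.

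Promoter windows are shown because some members have much alike windows and because the family is known for induction by interferon. The windows run from 250 bases before to 50 bases after the RefSeq gene start (GRCm38.p6), and 11 windows of 9 members were matched, with none for Ifi204. The windows of Mndal and Aim2 lie inside the gene spans given above, far from where those spans begin on the gene's strand. Each line below reads 5′ to 3′ on the gene's strand, and capitals mark matches on either strand to GAAA, 2 bases of any kind and GAAA again, the core of the interferon-stimulated response element (ISRE), and, in Ifi202b, to TTCNNNGAA, the core of the interferon-gamma activated site (GAS). The windows are Ifi203 at chr1:173942443-173942742 (the second of its 2 starts), Mndal at chr1:173880138-173880437 (the first of its 2), Ifi211 at chr1:173912997-173913296, Ifi207 at chr1:173741760-173742059, Ifi213 at chr1:173599223-173599522 and Ifi202b at chr1:173982795-173983094, all on the minus strand, and Ifi209 at chr1:173630609-173630908 on the plus strand.
Ifi203: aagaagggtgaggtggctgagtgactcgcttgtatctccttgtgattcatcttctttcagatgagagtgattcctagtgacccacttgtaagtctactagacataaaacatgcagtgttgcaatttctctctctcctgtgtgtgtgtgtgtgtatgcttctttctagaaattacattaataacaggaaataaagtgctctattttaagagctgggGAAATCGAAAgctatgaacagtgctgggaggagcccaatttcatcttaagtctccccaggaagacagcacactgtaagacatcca
Mndal: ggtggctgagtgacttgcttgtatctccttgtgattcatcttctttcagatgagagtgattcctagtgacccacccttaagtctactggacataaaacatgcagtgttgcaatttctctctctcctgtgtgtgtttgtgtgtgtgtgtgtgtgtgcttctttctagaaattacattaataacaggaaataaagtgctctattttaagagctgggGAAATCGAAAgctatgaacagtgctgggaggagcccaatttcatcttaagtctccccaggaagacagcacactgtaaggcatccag
Ifi211: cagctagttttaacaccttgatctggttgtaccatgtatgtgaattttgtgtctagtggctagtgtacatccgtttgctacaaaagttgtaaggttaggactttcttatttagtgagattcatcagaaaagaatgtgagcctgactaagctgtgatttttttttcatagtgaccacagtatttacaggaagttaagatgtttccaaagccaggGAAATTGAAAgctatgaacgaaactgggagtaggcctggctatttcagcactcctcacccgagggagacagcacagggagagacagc
Ifi207: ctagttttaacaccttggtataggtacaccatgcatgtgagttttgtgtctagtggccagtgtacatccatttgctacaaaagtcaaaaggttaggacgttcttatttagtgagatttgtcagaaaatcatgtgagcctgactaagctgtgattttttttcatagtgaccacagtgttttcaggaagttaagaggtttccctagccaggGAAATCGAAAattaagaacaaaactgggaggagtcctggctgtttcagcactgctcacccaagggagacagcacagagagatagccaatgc
Ifi213: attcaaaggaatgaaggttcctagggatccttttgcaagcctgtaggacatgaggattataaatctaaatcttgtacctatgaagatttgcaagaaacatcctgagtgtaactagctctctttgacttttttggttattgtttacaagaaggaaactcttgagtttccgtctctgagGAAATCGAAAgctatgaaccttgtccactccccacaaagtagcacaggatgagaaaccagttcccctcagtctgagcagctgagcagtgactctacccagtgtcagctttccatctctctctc
Ifi209: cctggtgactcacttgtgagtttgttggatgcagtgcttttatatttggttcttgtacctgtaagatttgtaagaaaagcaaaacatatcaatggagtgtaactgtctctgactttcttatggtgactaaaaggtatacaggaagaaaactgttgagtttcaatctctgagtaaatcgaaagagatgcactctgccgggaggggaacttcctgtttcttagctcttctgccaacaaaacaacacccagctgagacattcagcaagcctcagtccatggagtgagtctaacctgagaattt
Ifi202b: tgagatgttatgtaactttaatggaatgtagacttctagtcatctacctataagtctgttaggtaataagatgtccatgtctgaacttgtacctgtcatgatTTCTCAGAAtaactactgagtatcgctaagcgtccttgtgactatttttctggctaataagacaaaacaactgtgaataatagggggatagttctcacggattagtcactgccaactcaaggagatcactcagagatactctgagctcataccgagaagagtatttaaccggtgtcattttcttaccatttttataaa

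An ISRE core stood in 7 of the 11 windows, whereas 3.44% of all 32851 windows of the genome hold one. The 7 windows belong to 6 of the 9 members (Ifi203, Mndal, Ifi211, Ifi207, Ifi213 and Ifi205). Some of them are near copies of each other, as given below, so they do not count as separate occurrences. In the windows of Ifi203, Mndal, Ifi211, Ifi207 and Ifi213 printed above, the core began between positions -73 and -35 from the gene start. The core read gaaatcgaaa in Ifi203, Mndal, Ifi207 and Ifi213, and gaaattgaaa in Ifi211 and Ifi205. Ifi209, Ifi202b and Aim2 had no match to the ISRE core in their windows. Ifi209 held 4 sequences that differ from it by 1 base, among them taaatcgaaa at -79, with G1T when positions are counted from the 5′ end of the core. Such likeness is common, since 35.4% of all windows hold the core with at most 1 difference. The GAS core was found among the members only in the window of Ifi202b, and in 8.30% of all windows. Aim2 alone held GAGGAAGT, a binding motif of the myeloid factor PU.1, which 3.20% of all windows hold.

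The windows of Ifi203 and Mndal were identical at 282 of 289 aligned bases, or 97.6%. Those of Ifi207 and Ifi211 were identical at 260 of 294 (88.4%), and those of Ifi213 and Ifi209 at 203 of 246 (82.5%). Those of Ifi211 and Ifi205 were identical at 189 of 201 (94.0%) over a shorter aligned stretch. The transcripts share sequence as well, and the sources used here do not say how fragments that match several genes were counted. Of the 31-base words in the GENCODE M21 transcripts of Ifi211, 78.9% also occur in transcripts of another gene, most often of Ifi205 (49.5%). For Ifi209 the share was 47.2%, nearly all with Ifi214, which itself had at most 0.0767 FPKM. It was 34.6% for Ifi204, 28.7% for Mndal, 26.6% for Ifi213, 22.1% for Ifi205, 21.9% for Ifi203 and 14.8% for Ifi207. Aim2 (5.26%) and Ifi202b (1.20%) were the most distinct, with the smallest shares of such words. How far the sharing moves any level was not tested.

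Ifi204 was the most abundant member, with a mean of 13.4 FPKM over the 6 libraries (range 9.63 to 18.1), and it exceeded Ifi207, the next in order, in all 6 libraries. Ifi207 (mean 9.13 FPKM), Ifi209 (8.22), Aim2 (7.45) and Mndal (7.22) followed, and their order was not stable between libraries. Ifi207 exceeded Ifi209 in 4 of 6 libraries, Ifi209 exceeded Aim2 in 2 and Aim2 exceeded Mndal in 3. Mndal stood above Ifi211 (5.84 FPKM) and Ifi211 above Ifi203 (3.21 FPKM) in all 6. Ifi213 (1.47 FPKM) and Ifi205 (0.486 FPKM) were the lowest, while Ifi202b (1.58 FPKM) was present in 2 libraries only.

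**Figure D2:**
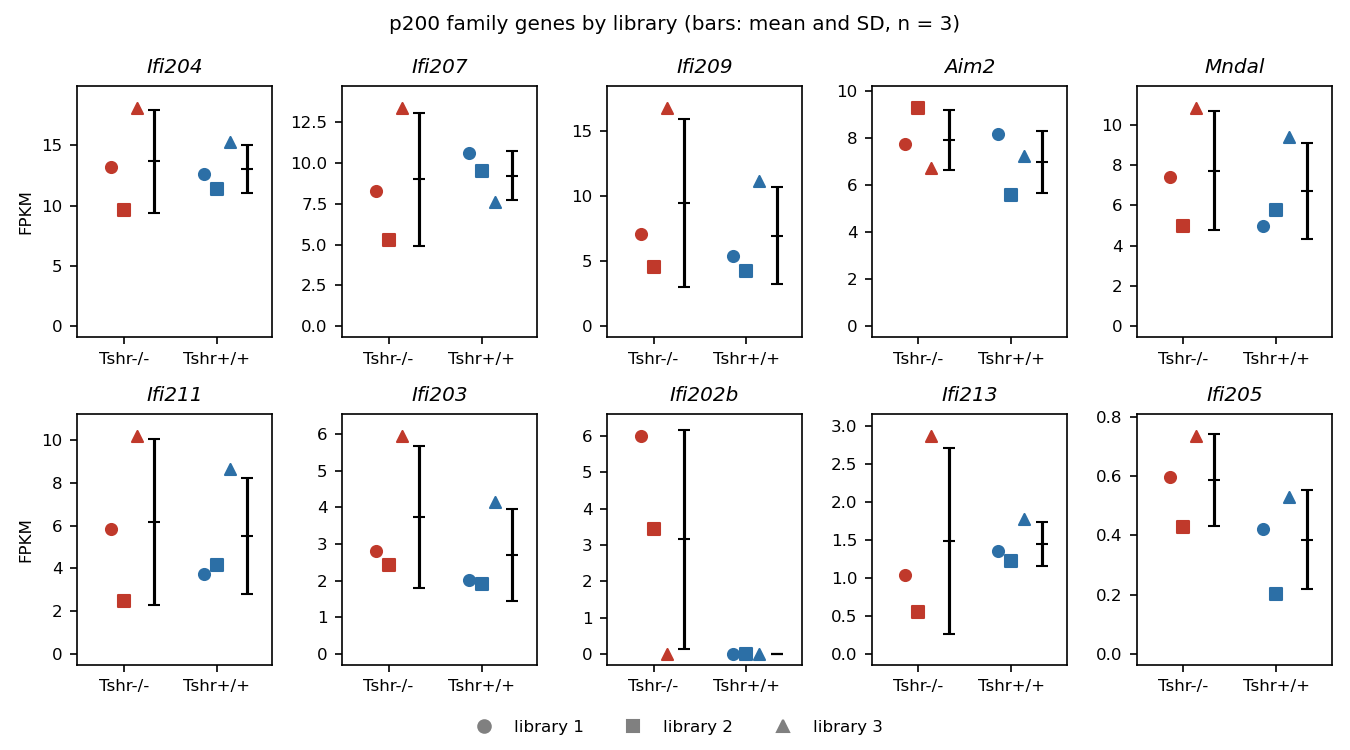
FPKM of each p200 gene in the 3 libraries labelled Tshr-/- (red, left) and the 3 labelled Tshr+/+ (blue, right), with circles, squares and triangles for libraries 1, 2 and 3 and black bars for the mean and SD (n = 3). In Ifi209, Ifi211, Ifi203, Mndal, Ifi204, Ifi213 and Ifi205 the triangle is the highest point of both genotypes, and Ifi202b is above 0 in the libraries Tshr-/- 1 and 2 alone.

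Among the DNA sensors, Aim2 had 7.72, 9.27 and 6.73 FPKM in Tshr-/- 1, 2 and 3, against 8.16, 5.57 and 7.23 FPKM in Tshr+/+ 1, 2 and 3. The values of the groups interleave, and the highest was 1.66 times the lowest, the narrowest range of the family. Ifi204 had 13.2, 9.63 and 18.1 FPKM in Tshr-/- 1, 2 and 3, against 12.6, 11.4 and 15.3 FPKM in Tshr+/+ 1, 2 and 3. Library 3 was the highest of either genotype, and both the highest and the lowest of the 6 values came from Tshr-/-.

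Ifi202b, the gene of the AIM2 inhibitor p202, was present in only 2 libraries. It had 6.01 FPKM from 164 fragments in the library labelled Tshr-/- 1 (exact 95% Poisson interval 5.12 to 7.0 FPKM, counting error only) and 3.45 FPKM from 82 fragments in Tshr-/- 2 (2.74 to 4.28 FPKM). It had 0 fragments in Tshr-/- 3 and in Tshr+/+ 1, 2 and 3, where a count of 0, with 3 fragments as the limit, allows up to 0.0877 FPKM in Tshr-/- 3 and up to 0.104, 0.107 and 0.0956 FPKM in Tshr+/+ 1, 2 and 3. The other 9 members had fragments in every library. None of 10 genes that all cells use was at 0 in any library, the lowest being at 1.31 FPKM. The groups overlap because of Tshr-/- 3. Tshr-/- 1 and 2 are also the libraries labelled Tshr-/- with 40 and 25 Tshr fragments, while Tshr-/- 3 held 1. Among all 54532 genes, 6 had at least 1 FPKM in Tshr-/- 1 and 2 and 0 in the other 4 libraries, and Ifi202b and Gm17622 were the protein-coding ones, Gm17622 with only 2 fragments in each of them. The reverse, 0 in both and at least 1 FPKM in the other 4, held for 2 genes, of which the interferon-induced gene Ifi44l was the protein-coding one. Ifi44l had 6.56 FPKM in Tshr-/- 3, against 2.39, 2.50 and 6.37 FPKM in Tshr+/+ 1, 2 and 3.

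Ifi205 and Ifi207 are reported to act on partners of the DNA sensors. Ifi205, which encodes a regulator of Asc expression in mouse macrophages, stayed low, with 0.595, 0.427 and 0.737 FPKM in Tshr-/- 1, 2 and 3, against 0.422, 0.202 and 0.531 FPKM in Tshr+/+ 1, 2 and 3. Between 14 and 62 fragments stand behind each of these values. The Tshr-/- library was the higher in each pair of equal number, and the groups overlapped. Ifi207, a pyrin-domain member reported to stabilise STING in mouse cells, had 8.32, 5.31 and 13.4 FPKM in Tshr-/- 1, 2 and 3, against 10.6, 9.51 and 7.62 FPKM in Tshr+/+ 1, 2 and 3. Its library 3 was the highest in Tshr-/- and the lowest in Tshr+/+.

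Ifi203 encodes a nuclear p200 protein. It had 2.81, 2.44 and 5.96 FPKM in Tshr-/- 1, 2 and 3, against 2.03, 1.91 and 4.14 FPKM in Tshr+/+ 1, 2 and 3. Each Tshr-/- library was above the Tshr+/+ library of the same number, but Tshr+/+ 3 was above Tshr-/- 1 and 2. Mndal, whose protein restrains cell growth, had 7.38, 4.95 and 10.8 FPKM in Tshr-/- 1, 2 and 3, against 4.97, 5.77 and 9.40 FPKM in Tshr+/+ 1, 2 and 3. The libraries numbered 3 were the highest pair here too.

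Ifi209, Ifi211 and Ifi213 encode less studied family members. Ifi209 had 7.06, 4.56 and 16.8 FPKM in Tshr-/- 1, 2 and 3, against 5.43, 4.24 and 11.2 FPKM in Tshr+/+ 1, 2 and 3. It had the largest spread within genotypes of the tested members: the within-genotype SD of its log2(FPKM + 1) values was 0.75, and 2.42% of all 10913 tested genes had a larger one. Ifi211 had 5.85, 2.48 and 10.2 FPKM in Tshr-/- 1, 2 and 3, against 3.72, 4.16 and 8.63 FPKM in Tshr+/+ 1, 2 and 3. Ifi213 had 1.05, 0.553 and 2.87 FPKM in Tshr-/- 1, 2 and 3, against 1.36, 1.22 and 1.77 FPKM in Tshr+/+ 1, 2 and 3. In all 3 genes the highest value came from Tshr-/- 3 and the groups overlapped. The median within-genotype SD was 0.48 over the 8 tested members and 0.19 over all tested genes.

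Between the genotypes, no member differed past the threshold. Of the 10 members, 8 passed the filter, and Ifi202b and Ifi205 did not. Limma on log2(FPKM + 1) called 0 of the 8 at a Benjamini-Hochberg adjusted p under 0.05, against 0 of all 10913 tested genes (0.0%). At an unadjusted p under 0.05 stood 0 of the 8 and 317 of all tested genes, and limma's voom, run on whole fragments, called 0 of 13709 genes, with 377 at an unadjusted p under 0.05. On this scale, which understates changes of genes with low values, 6 of the 8 had a log2 fold change above 0, against 47.1% of all tested genes. Ifi203 had the largest, 0.34 ± 0.33 (SE), where Tshr-/- averaged 3.73 ± 1.93 FPKM and Tshr+/+ averaged 2.69 ± 1.25 FPKM (SD, n = 3 each). Ifi209 stood at 0.32 ± 0.48 (SE), with means of 9.48 ± 6.47 FPKM in Tshr-/- libraries and 6.96 ± 3.73 FPKM in Tshr+/+ libraries (SD, n = 3 each). Mndal (0.16), Aim2 (0.16), Ifi211 (0.06) and Ifi204 (0.03) lay closer to 0, and Ifi213 (-0.08) and Ifi207 (-0.10) lay below it. The errors were between 0.17 and 0.48, and each fold change but that of Ifi203 was smaller than its error. The median log2 fold change was 0.11 over the 8 members and -0.01 over all tested genes. These directions held under each rescaling tried. The rescaling by median of ratios left the values almost unchanged, so it could hardly turn a direction. When a library was left out, 7 of the 8 turned, Aim2 among them only when Tshr-/- 1 and 2 were left out together. Ifi203 kept its direction.

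**Figure D3:**
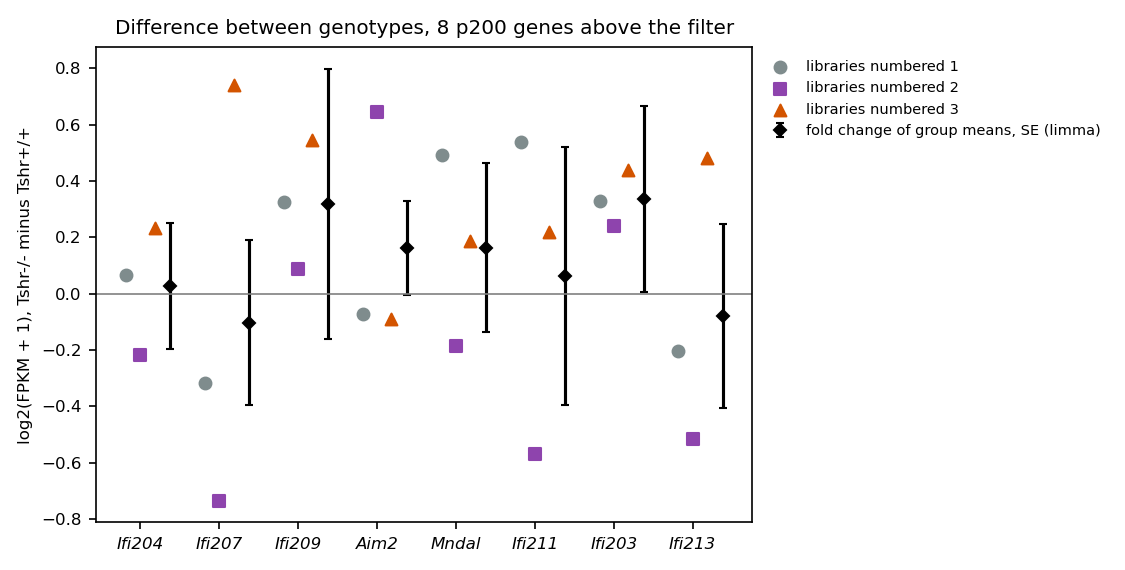
Difference in log2(FPKM + 1), Tshr-/- minus Tshr+/+, for the 8 p200 genes above the filter, in order of mean level. Grey circles, purple squares and orange triangles are the pairs of libraries numbered 1, 2 and 3, and black diamonds are the limma fold changes with SE; for Ifi209 and Ifi203 all 3 pairs lie above 0, while for Ifi207 the pairs lie at -0.32, -0.73 and 0.74.

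The groups overlapped in all 8 tested members, whereas they did not in 6.77% of all tested genes. The values rested on single libraries. Without Tshr-/- 3, 2 of the 8 members had a log2 fold change above 0, the median was -0.17, and the groups no longer overlapped in 1 member (16.8% of all tested genes). Without Tshr+/+ 3 the median was 0.29, again with 1 member without overlap (35.5%), and without Tshr-/- 2 it was 0.33, with all 8 above 0. Without Tshr+/+ 1 the median was 0.004 and without Tshr+/+ 2 it was -0.02. Without the libraries labelled Tshr-/- 1 and 2, only Tshr-/- 3 remains against Tshr+/+. Library 3 also ran high for the family in Tshr+/+, as given below, and this comparison does not allow for that. The log2 fold changes were then 1.26 in Ifi209, 0.97 in Ifi203, 0.86 in Ifi211 and 0.67 in Ifi213. In Mndal, Ifi207, Ifi204 and Aim2 they were 0.66, 0.50, 0.45 and -0.03. The median was then 0.66 and 7 of the 8 members did not overlap, against 48.7% of all tested genes. Without both libraries numbered 3 the median was 0.07, and the groups did not overlap in 3 members, against 47.5% of all tested genes.

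The members were also compared by pairs of equal number, as a description. Across all tested genes, deviations from the group means correlated at 0.24, 0.26 and 0.47 for numbers 1, 2 and 3. Tshr-/- 1 correlated more with Tshr+/+ 2 (0.34). Deviations cancel within a group, so a shared shift of number 3 can by itself raise the correlations among numbers 1 and 2. Pairs 1 and 2 are therefore not established as pairs. The Tshr-/- library was the higher of its pair in all 3 pairs for 2 of the 8 tested members, Ifi203 and Ifi209, against 12.2% of all tested genes. For Ifi203 the ratios of FPKM, Tshr-/- over Tshr+/+, were 1.38, 1.28 and 1.44 in pairs 1, 2 and 3. For Ifi209 they were 1.30, 1.08 and 1.5. In pair 3 the Tshr-/- library was higher for 7 of the 8 members, and in pair 2 it was lower for 5 of the 8.

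The family also differed between library 3 and the others of its genotype, a pattern seen in the values before it was counted. Library 3 was the highest of both genotypes for 6 of the 8 tested members, namely Ifi203, Ifi204, Ifi209, Ifi211, Ifi213 and Mndal, and for Ifi205 below the filter. Over all tested genes this held for 22.0%. For these 6 members, library 3 stood at 1.58 to 3.6 times the mean of libraries 1 and 2 in Tshr-/-, and at 1.27 to 2.32 times in Tshr+/+. Ifi209 had 2.89 times in Tshr-/- and 2.32 times in Tshr+/+, and Ifi203 had 2.27 and 2.10 times. Aim2 stood at 0.792 times in Tshr-/- and 1.05 times in Tshr+/+, and Ifi207 at 1.97 times in Tshr-/- and 0.757 times in Tshr+/+. The 10 members summed to 60.0, 43.1 and 85.7 FPKM in Tshr-/- 1, 2 and 3, against 49.3, 43.9 and 65.8 FPKM in Tshr+/+ 1, 2 and 3. What the number stands for is not given in the labels.

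Other gene lists moved with library 3 to differing degrees, and their part in the family's pattern was not tested. On the log2 scale, the median ratio of library 3 to the mean of libraries 1 and 2 was 1.08 in Tshr-/- and 0.63 in Tshr+/+ for the 8 tested members, against -0.02 in Tshr-/- and -0.003 in Tshr+/+ for all tested genes. Library 3 was the highest of both genotypes for 6 of 10 monocyte genes, with median log2 ratios of 0.66 in Tshr-/- and 0.32 in Tshr+/+. The monocyte chemokine receptor gene Ccr2, picked after its values were seen, rose in library 3 by more than these medians. It had 18.4, 12.6 and 29.9 FPKM in Tshr-/- 1, 2 and 3, against 11.4, 11.6 and 32.5 FPKM in Tshr+/+ 1, 2 and 3. For 5 of 10 macrophage genes and 0 of 10 neutrophil genes, library 3 was the highest of both genotypes. The summed neutrophil genes were at 131074, 144356 and 92883 FPKM in Tshr-/- 1, 2 and 3, against 122345, 140054 and 115552 FPKM in Tshr+/+ 1, 2 and 3. Their lowest sum thus came from library 3 in both genotypes. The summed monocyte genes, in which the abundant Ly6c2 weighs most, were not highest in library 3 of either genotype. They were at 1082, 928 and 1063 FPKM in Tshr-/- 1, 2 and 3, against 1011, 1131 and 945 FPKM in Tshr+/+ 1, 2 and 3. The summed macrophage genes were at 219, 249 and 327 FPKM in Tshr-/- 1, 2 and 3, against 380, 291 and 321 FPKM in Tshr+/+ 1, 2 and 3. Between the genotypes, 9 of the 10 macrophage genes had a log2 fold change below 0 (median -0.25), as did 4 of 5 tested B lineage genes (median -0.40), while 5 of 5 tested erythroid genes lay above 0 (median 0.74). Without Tshr-/- 1 and 2, 2 of the 10 macrophage genes lay below 0 (median 0.18) and 2 of the 5 B lineage genes (median 0.06), and the 5 erythroid genes again lay above 0 (median 0.24). In such bulk samples, fewer cells of a type and less RNA per cell cannot be told apart.

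**Figure D4:**
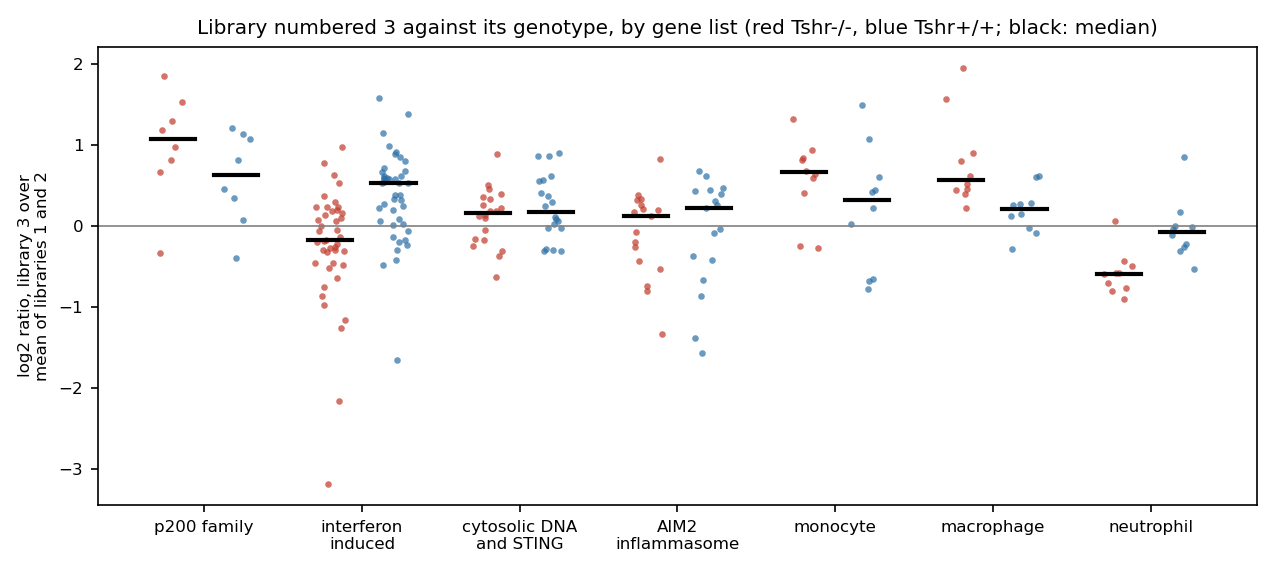
Log2 ratio of library 3 to the mean of libraries 1 and 2 of its genotype, for tested genes of 7 lists. Each point is a gene, red for Tshr-/- and blue for Tshr+/+, and black lines are medians; the p200 family lies at 1.08 and 0.63, and Ifi44l, at 0 in Tshr-/- 1 and 2, is not drawn for Tshr-/-.

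The partners of the DNA sensors were examined in lists chosen with earlier results known. Of 26 genes of cytosolic DNA sensing and STING signalling, 20 were tested: 13 had a log2 fold change above 0 and 7 below, 0 were called, and the median was 0.05. Without Tshr-/- 1 and 2, again 13 lay above 0, with a median of 0.13. Tmem173, which encodes STING, had 8.10, 6.91 and 13.9 FPKM in Tshr-/- 1, 2 and 3, against 5.58, 6.90 and 11.7 FPKM in Tshr+/+ 1, 2 and 3. It was highest in library 3 of both genotypes, as were 10 of the 20 genes. Mb21d1, the gene of the DNA sensor cGAS, had 4.40, 3.04 and 4.10 FPKM in Tshr-/- 1, 2 and 3, against 5.08, 3.64 and 4.28 FPKM in Tshr+/+ 1, 2 and 3. Ifi35, an interferon-induced gene, was the 1 of the 20 whose groups did not overlap, a share below the 6.77% of all tested genes (18, 16.2 and 13.2 FPKM in Tshr-/-, against 10.7, 13.1 and 12.6 FPKM in Tshr+/+). Ifnb1, the interferon-beta gene, was listed at 0 in all libraries but Tshr+/+ 1, which held 1 fragment.

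Of 17 genes of the AIM2 inflammasome and related sensors, all were tested: 12 were above 0, 5 below, 0 were called, and the median was 0.05. Without Tshr-/- 1 and 2, 11 lay above 0, with a median of 0.13. The adaptor gene Pycard had 7.15, 5.46 and 7.94 FPKM in Tshr-/- 1, 2 and 3, against 6.12, 5.62 and 7.71 FPKM in Tshr+/+ 1, 2 and 3. Casp1, the gene of caspase-1, had 20.8, 21.7 and 20.2 FPKM in Tshr-/-, against 17.1, 16.2 and 22.5 FPKM in Tshr+/+. Pycard was highest in library 3 of both genotypes, at 1.26 times the mean of libraries 1 and 2 in Tshr-/- and 1.31 times in Tshr+/+. Casp1 was not, with 0.95 times in Tshr-/-. Neither rose in library 3 as far as Ifi209 or Ifi203 did. Library 3 was the highest of both genotypes for 5 of the 17 genes, against 22.0% of all tested genes. The groups did not overlap in 3 of the 17, against 6.77% of all tested genes, all 3 higher in Tshr-/-: Naip2 and Naip5, sensors of bacterial proteins, and Zbp1, a sensor of Z-form nucleic acids. Zbp1 had 17.5, 14.7 and 13.4 FPKM in Tshr-/-, against 6.85, 10.9 and 11 FPKM in Tshr+/+, a log2 fold change of 0.63 ± 0.19 (SE).

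The p200 members and the other interferon-induced genes were set side by side, with no test of the difference. Of 43 tested interferon-induced genes outside the family, 42 lay above 0 between the genotypes. Their median was 0.40, and in 14 the groups did not overlap, all higher in Tshr-/-. Over all tested genes, 47.1% lay above 0 and 6.77% did not overlap. Without Tshr-/- 1 and 2, 38 of the 43 lay above 0 (48.0% of all tested genes), the median was 0.32, and 28 did not overlap (48.7%), of which 25 were higher in Tshr-/-. Among the 14 genes, Nlrc5, a transactivator of MHC class I genes, had 6.10, 4.90 and 5.28 FPKM in Tshr-/- 1, 2 and 3, against 2.94, 3.33 and 3.33 FPKM in Tshr+/+ 1, 2 and 3. No gene of the list was called. Of the 8 p200 members 6 lay above 0, the median was 0.11, and the groups overlapped in all 8. Without Tshr-/- 1 and 2, 7 lay above 0 with a median of 0.66. That median sets Tshr-/- 3 alone against all Tshr+/+ libraries, although library 3 ran high for the family in Tshr+/+ too. Against Tshr+/+ 3 alone, the log2 differences were 0.74 in Ifi207, 0.54 in Ifi209, 0.48 in Ifi213 and 0.44 in Ifi203. They were 0.23 in Ifi204, 0.22 in Ifi211, 0.19 in Mndal and -0.09 in Aim2. By library, the median log2 ratio of library 3 to libraries 1 and 2 in Tshr-/- was -0.18 for the interferon-induced genes and 1.08 for the p200 members. In Tshr+/+ it was 0.53 and 0.63. Of 18 tested genes of interferon signalling, 12 were above 0 and 6 below, with 0 called and a median of 0.04. Stat2, which binds the ISRE with its partners, was the 1 without overlap (10.2, 9.0 and 9.79 FPKM in Tshr-/-, against 7.80, 8.06 and 8.08 FPKM in Tshr+/+). Among 19 partners reported for p200 proteins, such as Rb1, E2f1 and Id2, 13 were above 0 and 6 below, the median was 0.07, and the groups overlapped in all. Leaving out Tshr-/- 1 and 2 gave medians of 0.08 for interferon signalling and 0.04 for these partners, with 11 genes above 0 in each list.

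Likeness was measured as the root mean square difference between log2(FPKM + 1) profiles centred on their mean over the 6 libraries, among tested protein-coding genes. With 6 libraries and so many genes, close profiles are plentiful. The genes nearest to Ifi203 were Rassf4 (0.09), Mavs (0.11), which encodes the adaptor of the RNA sensors, and Tmem173 (0.12). Rassf4 was also nearest to Ifi211 (0.22) and second to Ifi209 (0.18), after Arhgef37 (0.13). Among the members themselves, Ifi203 was the third nearest gene to Ifi209 (0.22) and Mndal the third nearest to Ifi211 (0.23). The reverse did not hold, since Ifi209 ranked only 107 in nearness to Ifi203 and Ifi211 only 368 in nearness to Mndal. Ifi204 lay nearest to H2-DMb1 (0.04) and Mgat2 (0.04), and Mndal to Ass1 (0.02). Aim2 was nearest to Vsig10l (0.09) and lay farther than any other tested member from the family mean (0.45). The family mean itself was nearest to Slc16a10 (0.06), Capn2 (0.06) and Plxnb2 (0.07).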

How the data were processed

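RNA was sequenced from CD11b-positive bone marrow cells of 12-week-old mice, 3 libraries labelled Tshr-/- and 3 labelled Tshr+/+. The deposited table gives FPKM made by the authors, 1 column per library. Its headings HO and WT with a number were matched to the titles, HO being read as the homozygous mutant. FPKM multiplied by the deposited gene length, divided by a constant for each library (what 1 fragment per kilobase is worth), gave whole fragments in 100% of values above 0 (tolerance 0.01). The build is GRCm38 (mm10), per the submitters' processing notes; the sources used here name no aligner, counter or use of strand. Position and exon length of all 10 members equalled GENCODE M21.

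FPKM were put on log2(FPKM + 1) and the 10913 genes reaching 1 FPKM in 3 or more libraries were fitted with limma 3.58.1 in R 4.3.3 (group means, variance trend, two-sided, Benjamini-Hochberg over all genes, threshold 0.05); the fit was tested on simulated data. Members, gene lists and alternatives were chosen with earlier results of these data known. Named genes were the members, the p200 rows of the cluster and, from each list, any called, up to 4 without overlap by smallest p and the most abundant, and the 3 nearest by likeness, of which some are given here only as counts; Nkg7, Igkc and Ly6c2 came by that rule, and Ccr2, Mb21d1, Tmem173, Pycard, Casp1, Ifnb1, Cd3e, Ifi44l and Gm17622 were named after their values were seen. No chance test was made of the list. Libraries of equal number were taken as pairs for description only, since the design gives no pairing. Their deviations from the group means correlated at 0.24, 0.26 and 0.47 for numbers 1, 2 and 3, although Tshr-/- 1 correlated more with Tshr+/+ 2 (0.34). The data do not establish pairs 1 and 2 either. Promoter windows come from RefSeq. Alignments used Biopython 1.88.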

Additional observations from a re-analysis of the deposited data

How the results depend on the processing

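The number of members past limma's threshold was 0 under all alternatives tried: pseudocounts of 0.1 and 0.5, no filter, a mean of at least 5 FPKM (which removed Ifi203 and Ifi213), 3 rescalings, voom, weights per library, a replicate block, protein-coding genes only and libraries left out. Over all genes, 24 were called with array weights and 24 without both libraries numbered 3. With each library left out in turn, between 0 and 2 genes were called, the 2 without Tshr-/- 3. With the replicate block limma called 0 genes, so the block changed no call, but 651 genes stood at an unadjusted p under 0.05, against 317 without it. The median log2 fold change of the members stayed at 0.11, which a block cannot change in this balanced design. That median ran from -0.17 (without Tshr-/- 3) to 0.33 (without Tshr-/- 2) with each library left out, and was 0.66 without the libraries labelled Tshr-/- 1 and 2, where the lone Tshr-/- library is assumed to vary like the Tshr+/+ ones. The number of members above 0, of 8, ran from 2 to 8 with each library left out. Members whose groups did not overlap numbered between 0 and 1 with each library left out, against 10.5% to 35.5% of all tested genes. They numbered 7 without the libraries labelled Tshr-/- 1 and 2 (48.7% of all tested genes). Without both libraries numbered 3 they numbered 3 (47.5%). Fewer libraries leave less room for overlap. The other causes were not tested. Ifi211, Ifi213 and Ifi204 were the members whose sign turned most easily, under 4, 4 and 3 alternatives. Depth limits Ifi205, with 14 to 62 fragments per library, and Ifi213 in Tshr-/- 2, with 53.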
